A study of Saccharomyces cerevisiae with 48 samples.

Results

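The genes described here make and oxidise polyamines in budding yeast. They are the amine oxidase gene FMS1, the synthesis genes SPE1, SPE2, SPE3 and SPE4, the antizyme gene OAZ1, and MEU1, which clears the by-product of polyamine synthesis. They were taken by gene symbol from the platform annotation, and each had 1 probe set, so they are 7 of 5498 budding yeast probe sets. Their systematic names are YMR020W (FMS1), YKL184W (SPE1), YOL052C (SPE2), YPR069C (SPE3), YLR146C (SPE4), YPL052W (OAZ1) and YLR017W (MEU1). All 7 passed the filter on low values, as did 5372 probe sets of 5332 genes. The study sampled a continuous culture every 4 min, each sample on 1 Affymetrix Yeast 2.0 array, and the labels read as an unbroken series from 1 fermenter. The strain was S. cerevisiae IFO0233, which in such cultures runs through a respiratory cycle of 40 to 45 min. The 37 phenelzine arrays covered 14.6 to 17.0 h after inoculation, and the 11 control arrays covered 13.8 to 14.5 h. The labels give no dose, and the addition is taken to lie between the last control and the first phenelzine sample. Phenelzine is a monoamine oxidase inhibitor, and the series asks about a doubling of the cycle's period after a perturbation. All samples share the strain and carry no labelled genetic change. No second culture and no untreated culture at the later hours were analysed here, so drug and elapsed time cannot be told apart. With time points in place of replicates, p-values measure only the spread between samples of 1 culture.

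Polyamines are small cations that bind nucleic acids and are needed for growth. Spe1 makes putrescine from ornithine, Spe2 makes decarboxylated S-adenosylmethionine, and Spe3 and Spe4 use that product to add aminopropyl groups, giving first spermidine and then spermine. Each of these additions releases methylthioadenosine, which Meu1 cleaves at the start of methionine salvage. Oaz1 binds Spe1 and sends it to the proteasome, and its own translation needs a ribosomal frameshift that polyamines promote. Fms1, a flavin-dependent amine oxidase, turns spermine back into spermidine and in doing so supplies beta-alanine for pantothenate and coenzyme A. Phenelzine acts on enzymes of the flavin-dependent amine oxidase kind, whereas the arrays measure transcript levels only.

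Values below are quantile-normalized log2 signal intensities, and times are minutes from the first phenelzine sample. Levels of different probe sets are not comparable with each other. Tests were made with limma across all 5372 probe sets, with Benjamini-Hochberg adjusted p-values and a threshold of 0.05. In bulk RNA, fewer cells with a transcript and less transcript per cell cannot be told apart. Array numbers skip 91, and the 16 arrays after that gap were all phenelzine samples. On them the dap spike-in, an added control RNA, had a log2 ratio of its 3 prime to its 5 prime probe set of 2.50 ± 0.20 (SD, n = 16), against 1.75 ± 0.22 (SD, n = 21) on phenelzine arrays before the gap and 1.74 ± 0.14 (SD, n = 11) on control arrays. The fission yeast spe1 and spe2 probe sets, whose transcripts the culture cannot supply, averaged 1.45 ± 1.35 and 2.84 ± 1.37 (SD, n = 37) on phenelzine arrays, and 1.53 ± 1.44 and 2.56 ± 1.59 (SD, n = 11) on control arrays.

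FMS1 was low where SPE4 and MEU1 were high. FMS1 intensity had a lowest value of 8.16, a median of 8.76 and a highest value of 9.03 over the phenelzine arrays, against 8.27, 8.83 and 9.19 over the control arrays. The groups overlapped over almost their whole range. FMS1 was lowest at 28 min in the first phenelzine cycle (8.16), at 80 min in the second (8.33) and at 132 min in the third (8.58), against a low of 8.27 at -16 min in the control. MEU1 was near its highest at those same times, with 11.74 at 32 min, 11.61 at 76 min and 11.80 at 132 min, against 11.57 at -16 min in the control. The Pearson correlation of FMS1 with MEU1 was -0.69 over the 48 arrays, and that of FMS1 with SPE4 was -0.74. These are descriptions only, since all genes share the arrays and the common cycle.

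The other synthesis genes ranged as follows. SPE1 intensity had a lowest value of 11.42, a median of 11.82 and a highest value of 12.04 over the phenelzine arrays, against 11.45, 11.74 and 11.92 over the control arrays. SPE2 had 8.98, 9.52 and 9.98 over the phenelzine arrays, against 9.20, 9.38 and 9.95 over the control arrays. For both genes the phenelzine arrays reached beyond the control range at both ends, as they did for SPE3, SPE4 and MEU1. SPE3 had 10.94, 11.47 and 11.95 over the phenelzine arrays, against 11.27, 11.40 and 11.88 over the control arrays. SPE4 had 9.40, 9.62 and 10.08 over the phenelzine arrays, against 9.46, 9.63 and 9.96 over the control arrays. MEU1 had 10.49, 11.10 and 11.80 over the phenelzine arrays, against 10.92, 11 and 11.57 over the control arrays. The low end after phenelzine lay further below the control low for SPE3 and MEU1 than for SPE4, and all groups overlapped. The phenelzine extremes come from 37 arrays over 144 min and the control extremes from 11 arrays over 40 min. More arrays alone can widen a range, and the ranges were not tested.

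**Figure D1:**
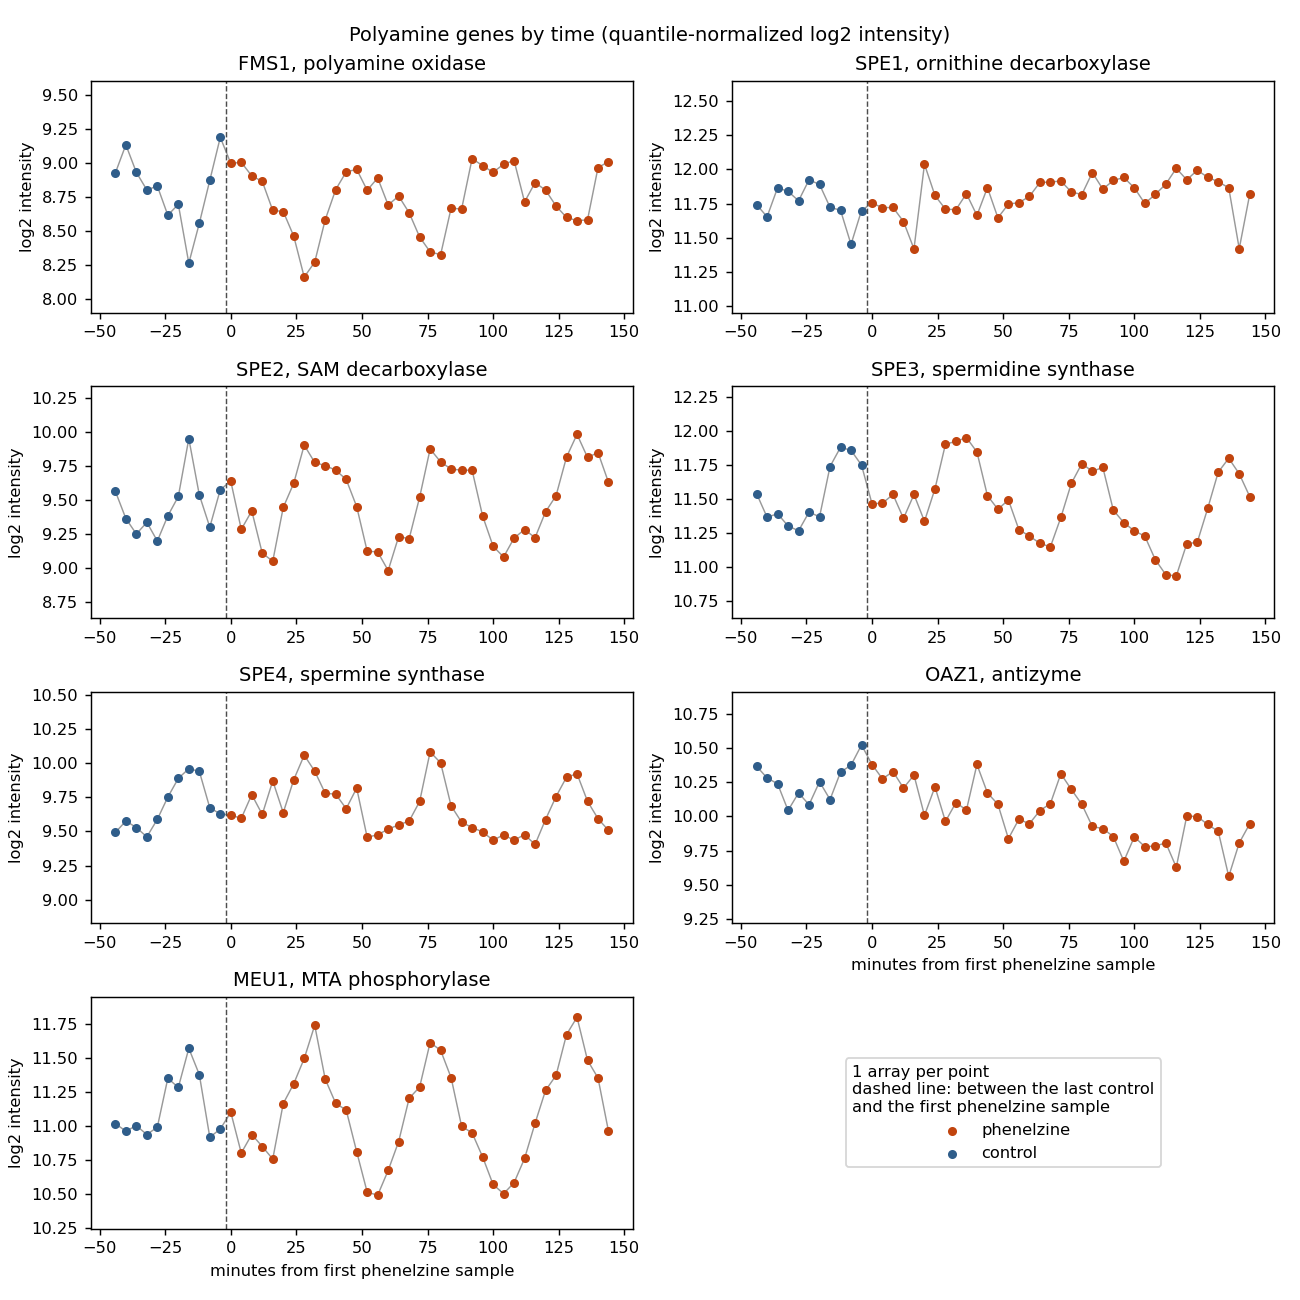
Quantile-normalized log2 intensity of the 7 genes (vertical axes, each spanning the same log2 range) against minutes from the first phenelzine sample (horizontal axes). Each point is 1 array, phenelzine or control, and the dashed line separates them. MEU1 and SPE4 crest while FMS1 dips. The SPE3 highs at -12, 36, 80 and 136 min follow the MEU1 highs at -16, 32, 76 and 132 min. OAZ1 on the arrays after the gap, between 9.56 and 10.00, lies below its control median of 10.25.

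The position of each gene in the cycle was read against a measured phase, taken from the plane of 2 leading principal components over tested probe sets outside the lists used here. It was counted as percent of a cycle after the mean peak of 66 mitochondrial ribosomal protein genes. On this phase a rhythm was called for 6 of the 7 genes, where 91.1% of all tested probe sets were called, so the share is near the background. Amplitudes, the height of the fitted wave above its mean, had a median of 0.29 in the 7 genes and 0.23 over all tested probe sets. UTP genes of ribosome assembly peaked at 39.5% of the cycle and MET genes at 49.0%.

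In the fit to all 48 arrays, the first enzyme of the pathway and its inhibitor were the flattest. SPE1, ornithine decarboxylase, had an amplitude of 0.069 ± 0.027 (SE, adjusted p = 0.046), a peak-to-trough ratio of 1.10, and a peak at 25.3 ± 6.1% of the cycle. That call was lost with 2 harmonics, without the mean-variance trend, with the values as deposited and on the arrays before the gap (adjusted p = 0.054, 0.051, 0.15 and 0.065). OAZ1 had an amplitude of 0.036 ± 0.038 (SE, adjusted p = 0.64), and its peak position could not be placed, with an SE of 18.2% of the cycle. It did pass with the values as deposited, at 0.16 (adjusted p = 0.036). Fitted by group, the OAZ1 amplitude was 0.15 in control and 0.029 in phenelzine arrays, and that of SPE1 0.13 and 0.059. These were still the smallest of the members in each group. The limma F test of the difference in rhythm passed for neither gene (adjusted p = 0.51 for OAZ1 and 0.52 for SPE1).

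The genes for the aminopropyl donor, the 2 synthases and MEU1 peaked around mid-cycle. SPE4, spermine synthase, peaked at 43.0 ± 1.8% of the cycle (SE) with an amplitude of 0.21, and MEU1 peaked at 43.8 ± 1.0% with the widest swing of the 7, an amplitude of 0.45 and a peak-to-trough ratio of 1.86. These positions differ by less than their errors. SPE2, S-adenosylmethionine decarboxylase, followed at 51.4 ± 1.3% (amplitude 0.33, ratio 1.58) and SPE3, spermidine synthase, at 56.5 ± 1.5% (amplitude 0.30, ratio 1.51). FMS1 peaked at 88 ± 1.4%, with an amplitude of 0.29 and a ratio of 1.50. Adjusted p-values for these 5 genes lay between 1.0e-17 for MEU1 and 1.3e-09 for SPE4. The SPE4 call was lost with the values as deposited, where its amplitude was 0.066 (adjusted p = 0.41).

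**Figure D2:**
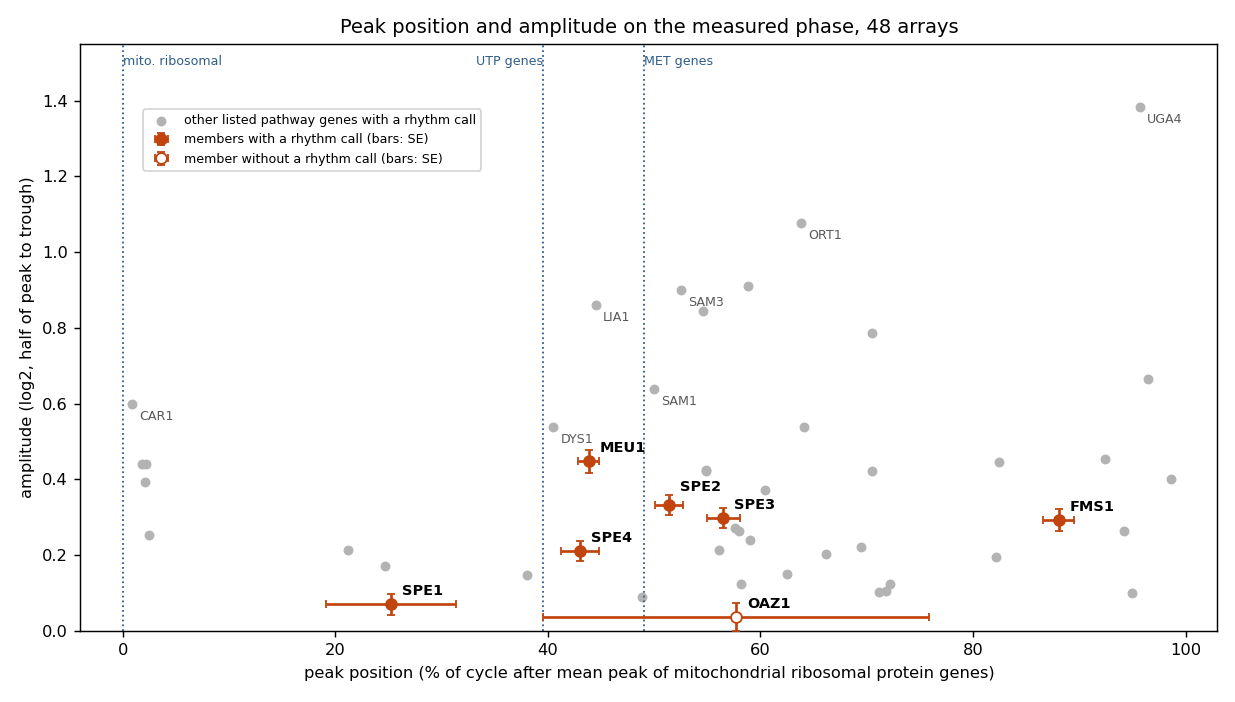
Amplitude on the log2 scale (vertical axis) against peak position as percent of the cycle (horizontal axis), from 1 fit to 48 arrays. Coloured points with SE bars are the 7 genes, grey points are the other listed pathway genes with a rhythm call, and dotted lines are mean peaks of 3 reference groups. FMS1 lies at 88%, away from SPE4, MEU1, SPE2 and SPE3 between 43.0% and 56.5%.

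Within each group the rhythm was tested at a fixed period. At 48 min after phenelzine, 5 of the 7 genes were called against 89.7% of all tested probe sets. The amplitudes called were 0.48 for MEU1, 0.37 for SPE2, 0.32 for SPE3, 0.28 for FMS1 and 0.21 for SPE4. With the values as deposited SPE4 lost its call (0.10, adjusted p = 0.29). SPE1 (0.063, adjusted p = 0.12) and OAZ1 (0.060, adjusted p = 0.23) did not pass. In the control samples, which span only 40 min and cannot tell a rhythm from a single rise and fall, a 40-min wave was called for 6 of the 7 genes, against 66.7% of all tested probe sets. SPE2 was the exception (0.20, adjusted p = 0.056), and it passed with columns centred on the median (0.20, adjusted p = 0.045). With the control values as deposited the calls for SPE1, SPE3, SPE4, OAZ1 and MEU1 were lost.

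After smoothing over 3 consecutive arrays, the spacing of turning points differed between genes and between peaks and troughs. MEU1 peaked at -16, 32, 80 and 132 min, with intervals of 48, 48 and 52 min. SPE4 peaked at -16, 28, 76 and 128 min, with intervals of 44, 48 and 52 min. Troughs of FMS1 fell at -16, 28, 76 and 132 min, with intervals of 44, 48 and 56 min. The peaks of FMS1 were 44 and 52 min apart and the troughs of MEU1 44 and 48 min. Troughs of SPE4 were 56 and 56 min apart, those of SPE3 48, 48 and 48 min and those of SPE2 44, 44 and 48 min. Peaks of SPE3 were 40 and 52 min apart and those of SPE2 48 and 48 min. Turning points were sought only from -32 to 132 min, so the third-cycle peaks of SPE2 and SPE3 are not among them. Unsmoothed, the highest third-cycle values were at 132 min for SPE2 and at 136 min for SPE3. These intervals come from 1 culture and are resolved only to the sampling step of 4 min.

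MEU1 had a wider swing after phenelzine. Its amplitude on the measured phase was 0.50 in phenelzine arrays and 0.29 in control arrays, and its peak lay at 44.9% of the cycle in phenelzine and 38.2% in control arrays. The test of the difference, which takes amplitude and position together, gave a difference wave of 0.26 (limma F test, adjusted p = 0.032), and 2.9% of all tested probe sets were called. The highest minus the lowest MEU1 value was 0.65 in the control window, then 0.98, 1.12 and 1.29 in the first, the second and the third phenelzine cycle. The same range of FMS1 was 0.92 in the control window, then 0.84, 0.70 and 0.44. The windows held 11, 11, 13 and 13 arrays, and these ranges were not tested. All arrays of the third cycle lie after the gap in array numbers. For FMS1 the test of the difference gave 0.068 (adjusted p = 0.78), and for SPE2, with amplitudes of 0.37 in phenelzine and 0.22 in control arrays, it gave 0.18 (adjusted p = 0.11). The MEU1 call was lost without any 1 of the control samples at -36, -32, -8 and -4 min (adjusted p up to 0.14), on the arrays before the gap (0.25, adjusted p = 0.089), with columns centred on the median (0.26, adjusted p = 0.12) and with the values as deposited (0.33, adjusted p = 1.0).

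**Figure D3:**
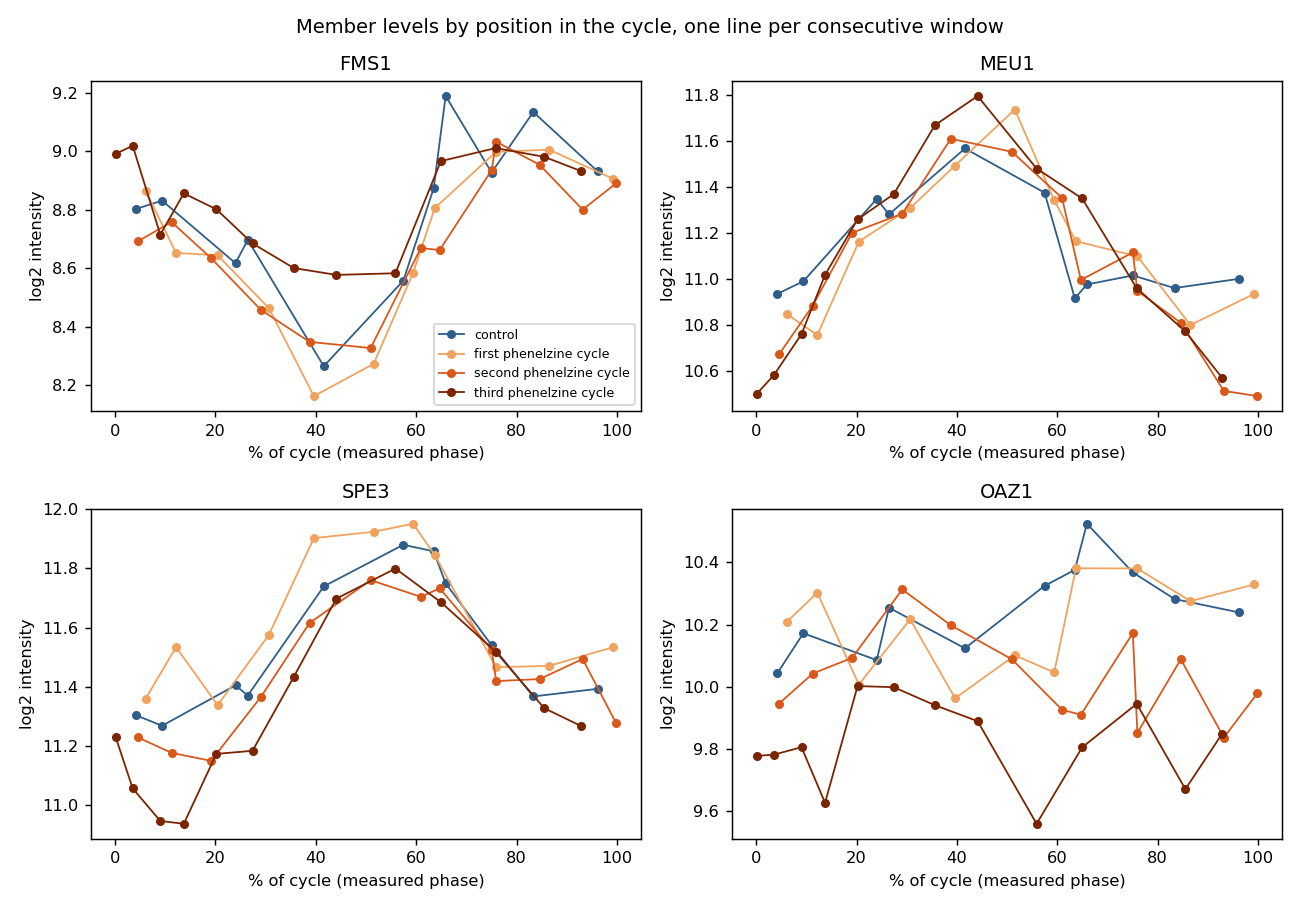
Log2 intensity (vertical axes) of FMS1, MEU1, SPE3 and OAZ1 against position in the cycle as percent (horizontal axes), each point 1 array and each line 1 consecutive window, control and 3 phenelzine cycles. The FMS1 low was shallower in the third cycle, at 8.58, on arrays that all lie after the gap in array numbers. The MEU1 low was 10.92 in control and 10.50 in the third cycle, and the OAZ1 lines move downward from window to window.

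Averaged over all arrays, none of the 7 genes differed between phenelzine and control past the threshold, and 0.465% of all tested probe sets did. FMS1 averaged 8.74 ± 0.23 (SD, n = 37) in phenelzine arrays and 8.80 ± 0.26 (SD, n = 11) in control arrays, a log2 difference of -0.066 with a 95% interval from -0.23 to 0.098 (limma, adjusted p = 0.93). That interval allows FMS1 to lie between 0.853-fold and 1.07-fold of control. For SPE1, SPE2, SPE3, SPE4 and MEU1 the differences ran from -0.074 for SPE3 to 0.062 for SPE1, and each 95% interval included 0.

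OAZ1 stood apart from the other 6 in size. OAZ1 had a lowest value of 9.56, a median of 10.00 and a highest value of 10.38 over the phenelzine arrays, against 10.04, 10.25 and 10.52 over the control arrays. Both ends of the range were lower after phenelzine, and the groups overlapped between 10.04 and 10.38. Its log2 difference was -0.25 (SE 0.068, 95% interval -0.38 to -0.11, adjusted p = 0.098), ranked 38 of 5372 by p. It passed on arrays of name suffix 01 alone (-0.28, adjusted p = 0.031) and with the measured phase as a covariate (-0.24, adjusted p = 0.016). On the 32 arrays before the gap it was -0.11 (adjusted p = 0.80). Against the control partners 44 min earlier, which is also the fit with these pairs as a replicate block, it was -0.053.

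In the first cycle after the addition, each of 11 phenelzine arrays was set against the control array 44 min earlier, near the same phase. Again none of the 7 genes passed, against 8.45% of all tested probe sets, 4% higher and 4.45% lower. FMS1 averaged 8.67 ± 0.28 in the phenelzine arrays and 8.80 ± 0.26 in their control partners (SD, n = 11 each), with a log2 difference of -0.13 (SE 0.051, adjusted p = 0.11). FMS1 was lower in 8 of 11 pairs. Its largest drops, -0.28, -0.29 and -0.38, were in the pairs ending at 32, 36 and 40 min. In those pairs the phenelzine arrays lay at 51.5, 59.4 and 63.7% of the cycle, and their control partners at 57.5, 63.5 and 65.9%. The part of this phase mismatch in the FMS1 difference was not tested. SPE3 (0.093, adjusted p = 0.10) and SPE4 (0.096, adjusted p = 0.15) were each higher in 9 of 11 pairs. OAZ1 averaged 10.20 ± 0.15 in the phenelzine arrays and 10.25 ± 0.14 in their control partners (SD, n = 11 each), a difference of -0.053 (SE 0.047, adjusted p = 0.51), and was lower in 7 of 11 pairs. As deposited the median of all tested probe sets shifted by -0.13 in this comparison, and the SPE3 and SPE4 differences were then -0.039 and -0.017, that is 0.092 and 0.11 above that shift.

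**Figure D4:**
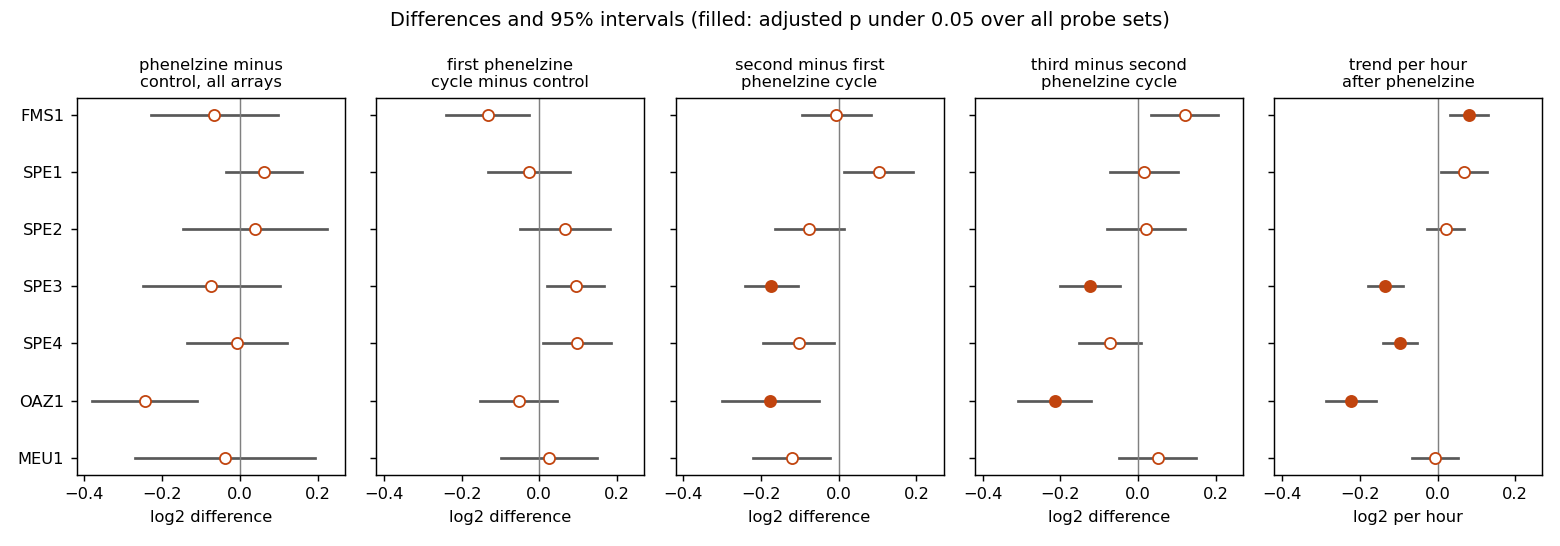
Log2 differences (first 4 panels) and log2 change per hour (last panel) on the horizontal axes for the 7 genes, with 95% intervals from limma. Filled points passed the threshold over all tested probe sets. No point is filled in the 2 comparisons with control, SPE3 and OAZ1 are filled below 0 in both comparisons between phenelzine cycles, and OAZ1 is lowest in the trend, at -0.22 per hour.

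From cycle to cycle after the addition, SPE3 and OAZ1 fell, 2 of the 7 genes in each comparison. Where 12 arrays were set against those 48 min earlier, 22.2% of all tested probe sets passed, 10.9% as higher and 11.2% as lower. SPE3 averaged 11.45 ± 0.22 in the second cycle and 11.62 ± 0.22 in the first (SD, n = 12 each), fell by 0.17 on the log2 scale (SE 0.033, limma, adjusted p = 0.0024) and was lower in 11 of 12 pairs. OAZ1 averaged 10.02 ± 0.14 in the second cycle and 10.20 ± 0.14 in the first (SD, n = 12 each). It fell by 0.18 (SE 0.059, limma, adjusted p = 0.043) and was lower in 9 of 12 pairs. The OAZ1 call was lost in 8 of the 12 fits that left out 1 pair, with adjusted p up to 0.093, without the mean-variance trend (adjusted p = 0.061), and on the pairs before the gap (-0.13, adjusted p = 0.19). As deposited neither gene passed, with -0.15 for SPE3 and -0.17 for OAZ1, and SPE3 also missed with columns centred on the median (-0.15, adjusted p = 0.068). With lags of 44 and 52 min neither passed, while the differences stayed between -0.18 and -0.15.

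The third cycle against the second, 13 pairs 52 min apart, called 16.8% of all tested probe sets, 8.94% as higher and 7.82% as lower. OAZ1 averaged 9.82 ± 0.14 in the third cycle and 10.03 ± 0.14 in the second (SD, n = 13 each), fell by 0.21 (SE 0.044, limma, adjusted p = 0.0053), and was lower in 12 of 13 pairs. SPE3 averaged 11.33 ± 0.28 in the third cycle and 11.45 ± 0.21 in the second (SD, n = 13 each), fell by 0.12 (SE 0.037, limma, adjusted p = 0.029), and was lower in 10 of 13 pairs. Its call was lost in 7 of the 13 fits that left out 1 pair, with adjusted p up to 0.064. FMS1 averaged 8.82 ± 0.17 in the third cycle and 8.70 ± 0.22 in the second (SD, n = 13 each), a difference of 0.12 that missed the threshold (adjusted p = 0.052) and was higher in 10 of 13 pairs. Every later array of these pairs lies after the gap in array numbers, and 3 of the earlier arrays do. Over the 3 pairs wholly after it the differences were -0.13 for OAZ1, 0.050 for SPE3 and 0.065 for FMS1, none of them past the threshold. As deposited the median of all tested probe sets shifted by 0.19, both calls were lost, and SPE3 was at 0.086. There FMS1 (0.26, adjusted p = 0.049), SPE1 (0.23, adjusted p = 0.0083) and MEU1 (0.26, adjusted p = 0.010) passed, at 0.079, 0.043 and 0.079 above that shift. FMS1 also passed without the mean-variance trend (adjusted p = 0.035). Relative to that shift OAZ1 was at -0.23 and SPE3 at -0.10. SPE3 also missed with columns centred on the median (adjusted p = 0.20) and with lags of 48 and 56 min (adjusted p = 0.27 and 0.11). OAZ1 missed with a lag of 48 min (-0.18, adjusted p = 0.10).

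Over the whole time after phenelzine, with the measured phase in the model, 4 of the 7 genes had a linear trend, 1 upward and 3 downward, where 24.1% of all tested probe sets rose and 23.4% fell. The log2 slope of OAZ1 was -0.22 per hour, with an SE of 0.031 and an adjusted p of 6.3e-07. SPE3 fell by 0.13 per hour (SE 0.022, adjusted p = 9.0e-06) and SPE4 by 0.097 per hour (SE 0.022, adjusted p = 0.00051). FMS1 rose by 0.081 per hour (SE 0.024, adjusted p = 0.0051). SPE1 had a slope of 0.068 (adjusted p = 0.051), SPE2 of 0.021 and MEU1 of -0.0068, none of which passed.

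The trends depended on the scaling and on the gap in array numbers. As deposited, slopes over all probe sets tested had a median of 0.12 per hour, and 2596 rose and 47 fell, against 1295 and 1257 after quantile normalization. The 4 calls were lost there, with slopes of -0.11 for OAZ1, 0.012 for SPE3, 0.00082 for SPE4 and 0.15 for FMS1, while SPE1 (0.23) and MEU1 (0.13) passed. Relative to that median, OAZ1 had -0.23, SPE4 -0.12, SPE3 -0.11 and FMS1 0.035 per hour. With columns centred on the median the calls for OAZ1, SPE3 and SPE4 held, FMS1 lost its call (0.035, adjusted p = 0.34), and SPE1 passed (0.11, adjusted p = 0.025). On the 21 phenelzine arrays before the gap, where 671 of 5372 probe sets passed, SPE3 had a slope of -0.21 (adjusted p = 0.016), OAZ1 of -0.14 (adjusted p = 0.24), SPE4 of -0.096 (adjusted p = 0.35) and FMS1 of -0.018 (adjusted p = 0.86). On the 16 arrays after it the slopes were 0.029 for SPE3, -0.094 for OAZ1, -0.015 for SPE4 and 0.13 for FMS1, none called. OAZ1 averaged 9.83 ± 0.13 (SD, n = 16) on the phenelzine arrays after the gap and 10.14 ± 0.15 (SD, n = 21) on those before it, against 10.25 ± 0.14 (SD, n = 11) in control. The dap ratio given above moved at the same gap, and its part in these values was not tested.

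A doubled period would make alternate cycles differ. A 96-min component, tested beside 48-min terms and a linear trend, was called for none of the 7 genes and for 0 of 5372 probe sets (limma, 0%), of which 417 had an unadjusted p under 0.05. The amplitudes of this component ran from 0.022 for SPE2 to 0.057 for FMS1. Periods 8 min shorter and 8 min longer, tested in the same way, also gave 0 calls, with 224 and 369 probe sets at an unadjusted p under 0.05. The phenelzine arrays span 144 min, so such a component was sampled for little more than 1 of its own cycles.

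The genes whose profiles lay closest to each member were named by Pearson correlation over the 48 arrays, as a description. Nearest to FMS1 were SUE1 (r = 0.89), needed for breakdown of unstable cytochrome c, the peroxisomal gene PEX28 (0.88) and the drug transporter gene QDR3 (0.87), and its most opposed profile was JIP5 (-0.85), a ribosome assembly gene. SPE4 lay nearest to NOC2 (0.90), SGD1 (0.88) and MAK5 (0.87), of which NOC2 and MAK5 act in ribosome assembly, and opposite MSK1 (-0.90), a mitochondrial tRNA synthetase gene. MEU1 lay nearest to LIA1 (0.97), followed by MRS6 (0.96) and TRM3 (0.96), a tRNA methyltransferase gene, and opposite COX11 (-0.92), a cytochrome oxidase assembly gene. LIA1 encodes deoxyhypusine hydroxylase, the last enzyme of the modification that consumes spermidine to activate eIF5A.

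SPE2 lay nearest to the tRNA adenosine deaminase gene TAD3 (0.93), the adenine deaminase gene AAH1 (0.93) and SAM3 (0.92), a permease gene for S-adenosylmethionine, and opposite MRX9 (-0.94). SPE3 lay nearest to the Golgi sugar-nucleotide transporter gene VRG4 (0.96), the DNA polymerase gene POL1 (0.93) and the GPI anchor gene MCD4 (0.93), and opposite SHH4 (-0.93). The 2 flattest members had weaker neighbours. SPE1 reached 0.78 with the protein kinase gene HRK1, 0.70 with the vacuolar proton pump gene VMA2, 0.70 with YPT31 and -0.80 with the kinetochore gene DAD1. OAZ1 reached 0.75 with TSC13, which acts in very long chain fatty acid synthesis, 0.73 with NSG1, 0.72 with MKT1 and -0.77 with BNA6, a gene of NAD synthesis.

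Among genes that feed the pathway or use its products, no listed gene differed past the threshold over all arrays. The S-adenosylmethionine synthetase genes SAM1 and SAM2 peaked at 50% and 58.0% of the cycle, with amplitudes of 0.64 and 0.26. Over the hours after phenelzine SAM1 rose by 0.13 per hour and SAM2 fell by 0.060 per hour. These are near-identical paralogs, whose probe sets may share signal. Of 7 genes listed for ornithine supply and use 6 were measured. In the first cycle after phenelzine 2 of them were lower than in control, beside 4.45% of all tested probe sets. These were ARG7 at -0.15 (adjusted p = 0.018) and CAR2, the transaminase that uses up ornithine, at -0.13 (adjusted p = 0.036). The CAR2 call was lost with columns centred on the median (adjusted p = 0.065). The median of these 6 was -0.12, against -0.0058 for all tested probe sets. First-cycle calls here and below were made at the 44-min lag. At lags of 40 and 48 min only 4 and 10 of the 5372 probe sets passed. CAR1, the arginase that releases ornithine, peaked at 0.879% of the cycle with an amplitude of 0.60, did not pass in the first cycle (-0.16, adjusted p = 0.16), and rose by 0.13 per hour, as did CAR2 by 0.099. ARG8 fell by 0.11 per hour and ARG2 by 0.077, where 24.1% of all tested probe sets rose and 23.4% fell.

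In the first cycle after phenelzine 2 of 4 hypusine genes were higher than in control, beside 4% of all tested probe sets. DYS1, deoxyhypusine synthase, which takes its butylamine group from spermidine, was higher by 0.16 (adjusted p = 0.044), and ANB1, the low-oxygen form of eIF5A, by 0.36 (adjusted p = 0.034). As deposited neither passed, with 0.31 for ANB1 and 0.035 for DYS1, and DYS1 also missed with columns centred on the median (adjusted p = 0.052). HYP2, the aerobic form, was at 0.022 and LIA1 at -0.0098, neither called. ANB1 and HYP2 are near-identical, so their probe sets may share signal. DYS1 and LIA1 peaked at 40.5% and 44.5% of the cycle, close to MEU1 and SPE4, with amplitudes of 0.54 and 0.86. None of the 4 passed for a trend.

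In polyamine transport, 1 of 12 genes passed in the first cycle, a share near the 8.45% of all tested probe sets. It was PTK2, a kinase gene that promotes polyamine uptake, lower by 0.18 on the log2 scale (adjusted p = 0.039). Over the hours after phenelzine 3 of the 12 rose and 3 fell, beside 24.1% and 23.4% of all tested probe sets. TPO1, a polyamine exporter of the plasma membrane, rose by 0.17 per hour (adjusted p = 8.4e-07). TPO3 fell by 0.23, UGA4, whose permease takes up putrescine, by 0.28 and the uptake gene DUR3 by 0.18 per hour. TPO1 peaked at 94.2% of the cycle, near FMS1, and SAM3 at 52.5%, near SPE2. TPO2 and TPO3 are close paralogs and may share signal.

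Downstream of MEU1, 3 of 8 methionine salvage genes rose over the hours, UTR4 by 0.20, ADI1 by 0.17 and MDE1 by 0.088 per hour, and none fell. MRI1, the next enzyme after MEU1, peaked at 54.9% of the cycle with an amplitude of 0.42 and its slope of 0.0095 per hour did not pass. In the first cycle ARO8, an aminotransferase gene, was lower by 0.15 (adjusted p = 0.025) and BAT2 higher by 0.10 (adjusted p = 0.032). Both calls were lost with columns centred on the median, and as deposited BAT2 was at -0.043. Of the 10 genes listed for beta-alanine, pantothenate and coenzyme A, none passed in the first cycle, and 2 rose and 3 fell over the hours. ALD3, an aldehyde dehydrogenase that forms beta-alanine, rose by 0.23 per hour (adjusted p = 0.0054), and CAB3 rose by 0.10, while CAB1 fell by 0.091 and PAN6 by 0.083. The polyamine acetyltransferase gene PAA1 fell by 0.086 per hour. These counts stand beside 24.1% and 23.4% of all tested probe sets that rose and fell. Of the 21 listed genes with a trend, 11 rose and 10 fell. On the arrays before the gap 5 of the 21 passed in the same direction, SAM1, CAR2, UTR4, ADI1 and DUR3. As deposited the slopes of 7 of the 10 that fell were above 0, and DUR3, UGA4 and TPO3 stayed below it. SAM2 turned with columns centred on the median too.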

How the data were processed

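The deposited values are linear signal intensities. The submitters' processing notes name GCOS, without a version, as the software; algorithm, target and scaling were not given in the sources used here. The column medians ran from 32.4 to 86.8. All 48 arrays were used. Signals under 1 were set to 1, log2 values were quantile normalized, and probe sets with a mean above the 90th percentile of 1747 fission yeast probe sets were tested. The number of arrays limits precision, as does their origin in 1 culture. Gene symbols came from the platform's probe annotation, updated with the R64 table of genes.

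Models were fitted in R 4.3.3 with limma 3.58.1, whose eBayes step allowed the variance to follow the mean, and intervals are 95%. The measured phase used principal components with 47.6% and 19.2% of variance. The members, lists, lags and the 48-min period were chosen with earlier results of these data known. Named genes were the members, 3 nearest and 1 most opposed profile each, 8 genes chosen by name, and up to 4 called genes of each list in the level, 44-min and trend comparisons. A gene with several probe sets was represented by that of highest mean, and ARG5,6 had no named probe set. The mean peak of mitochondrial ribosomal, UTP and MET genes, picked by symbol, served as reference. Neighbouring time points are not independent, so p-values may be too small. Alternatives were the values as deposited, median centring, another pseudocount, no filter, no variance trend, other lags and periods, arrays on 1 side of the missing number, a pair block and left-out time points. Each test was also run on simulated data of independent noise with an added effect. Those data held no shared cycle and no dependence between neighbouring time points, so they cannot show error rates here. Figures used matplotlib 3.10.9.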

Additional observations from a re-analysis of the deposited data

Results flagged for a closer look

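The MEU1 rhythm differed between phenelzine and control in a test of the difference itself, with a difference wave of 0.26 on the log2 scale (limma, adjusted p = 0.032). The amplitude was 0.50 in phenelzine and 0.29 in control arrays. The call was lost on the arrays before the missing array number (adjusted p = 0.089), with columns centred on the median (0.12), with the values as deposited (1.0), and in 4 of the 48 fits that left out 1 array, each a control sample (adjusted p up to 0.14).

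Outside the main measurement, the dap spike-in had a higher ratio of 3 prime to 5 prime signal, by 0.76 on the log2 scale, on the arrays after the missing array number than on control arrays. All 16 of those arrays were phenelzine samples.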

How the results depend on the processing

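The 7 genes had 504 values under alternatives other than left-out time points. Of these, 436 kept their direction and their side of the threshold and 24 changed sign. Among the rest, 34 lost a call and 10 gained one. Calls that were lost or gained together with a sign change are counted only among the 24. As deposited, for example, the SPE3 and SPE4 trends changed sign and lost their calls, and the MEU1 trend changed sign and gained one. The causes were not tested. Shares are percent of all probe sets tested. The level comparison called 0.465% (19 higher, 6 lower), and 0.0186% as deposited, 0.242% median centred, 0.0186% with the 44-min pairs as a replicate block, 0% on arrays before the missing array number (344 at an unadjusted p under 0.05 in limma) and 10.9% with phase as a covariate (281 higher, 303 lower). The 44-min comparison called 8.45% (215 higher, 239 lower), 17.5% as deposited (21 higher, 918 lower), 0.0745% with 40 min, 0.186% with 48 min and 2.94% to 11.6% with 1 pair left out. The second cycle against the first called 22.2% (588 higher, 604 lower), 1.64% as deposited (56 higher, 32 lower), 0.279% with 44 min and 0.335% with 52 min. The third against the second called 16.8% (480 higher, 420 lower), 37.7% as deposited (2015 higher, 8 lower), 9.42% median centred (196 higher, 310 lower), 1.97% with 48 min, 4.64% with 56 min and 0% over the 3 pairs after the missing number (578 unadjusted). The rhythm difference called 2.90%, and 0.0186% as deposited, 1.01% median centred, 1.30% before the missing number and 0.391% to 5.51% with 1 array left out. The trend called 47.5%, and 12.49% before the missing number. Sign changes as deposited were SPE2 -0.0088 in level, SPE2 -0.040, SPE3 -0.039, SPE4 -0.017 and MEU1 -0.10 at 44 min, SPE3 0.086 and SPE4 0.096 in the third cycle, and SPE3 0.012, SPE4 0.00082 and MEU1 0.13 in trend. Median centring turned the trend of SPE2 (-0.0074) and MEU1 (0.014). The replicate block turned the level of SPE1 (-0.025), SPE3 (0.093), SPE4 (0.096) and MEU1 (0.025), none called. Suffix 01 alone gave SPE2 -0.0075 in level, and arrays before the missing number gave SPE4 0.053 in level and FMS1 -0.018 and SPE2 -0.075 in trend. With 48-min terms the SPE2 trend was -0.013. Pairs after the missing number gave SPE1 -0.22, SPE3 0.050 and SPE4 0.013. With 1 pair left out, SPE1 ran from -0.065 to 0.0073 and MEU1 from -0.015 to 0.051 at 44 min, FMS1 from -0.023 to 0.012 in the second cycle, and SPE1 from -0.0017 to 0.053 and SPE2 from -0.0025 to 0.047 in the third. The OAZ1 call of the second cycle was lost without the pair ending at 48, 52, 56, 60, 64, 84, 88 or 92 min, and the SPE3 call of the third without any of 7 pairs that end between 100 and 128 min, all but that at 120 min. FMS1 passed in the third without 136 or 144 min (adjusted p = 0.032 and 0.044). With 1 pair left out SPE1, SPE4 and MEU1 each reached the threshold at least once in the second cycle (lowest adjusted p 0.045, 0.030 and 0.044), and SPE2 once in the rhythm difference (0.021). The number of arrays limits precision, and all 7 probe sets lay far above the fission yeast background of 3.01.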
